A study of Mus musculus with 37 samples.

Results

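Collagens and the tissue inhibitors of metalloproteinases (TIMPs) were followed in 2 tissues, liver and brain cortex, at the age of 10 months. The members were the protein-coding genes of GENCODE M21 whose symbol is that of a numbered collagen alpha chain (Col1a1 to Col28a1) or of Timp1 to Timp4. This gave 48 genes, 44 collagens and 4 TIMPs, of the 22028 protein-coding genes in both count tables. Mice were labelled WT, TDP-43Q331K, TMEM106B-/- or TMEM106B-/-TDP-43Q331K, and the last is called the combined genotype here. TDP-43 is an RNA-binding protein encoded by Tardbp, and the Q331K change is carried as a knock-in. TMEM106B is a lysosomal membrane protein. The liver table held 4 libraries of each genotype. The cortex table held 5 WT, 6 TDP-43Q331K, 5 TMEM106B-/- and 5 combined libraries. The labels name no treatment, sex or zygosity. They also leave unsaid whether libraries of a group stem from different mice, and p-values then cover only the spread among the libraries, which may be technical.

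Collagens are the structural proteins of connective tissue, built from alpha chains wound around each other. Fibrillar collagens such as types I and III form the rope-like fibrils of scar and of organ capsules, type IV forms the sheet of basement membranes under vessels and epithelia, and type VI forms fine beaded filaments around cells. TIMPs are secreted proteins that block the metalloproteinases which cut these matrices. In liver, hepatic stellate cells are the main source of fibrillar collagen during fibrosis, with portal fibroblasts and smooth muscle cells of the vessel walls as other sources. In brain, fibrillar collagen comes mostly from fibroblasts of the meninges and of large vessels, while endothelial and mural cells lay down type IV collagen.

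The libraries held 50.5 to 74.1 M counts in liver and 28.8 to 46.3 M in cortex. All 8 hepatocyte markers were detected in every liver, at a summed 102990 to 142320 CPM (counts scaled to the same library total), and all 7 neuronal markers in every cortex, at a summed 5805 to 7047 CPM. Tmem106b RNA did not fall with its label. Mean Tmem106b was 96.5 CPM in WT and 115.3 CPM in TMEM106B-/- liver, and 188.0 CPM in WT and 184.2 CPM in TMEM106B-/- cortex. The groups are therefore called by their labels throughout ("labelled TMEM106B-/-"), and gene counts do not check that deletion.

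Levels per transcript length differed widely between the tissues. In TPM, a scale that divides by gene length before scaling to the library, 17 members reached a WT mean of 1 in liver and 28 in cortex. The highest member of WT liver was Col18a1, a basement membrane collagen that carries the endostatin fragment, at 222.6 ± 21.7 TPM (SD, n = 4). Col27a1, a fibrillar collagen best known from cartilage, followed at 55.3 ± 39.6 TPM, and Col5a3, a type V chain, at 51.4 ± 6.13 TPM. The means of Col27a1 and Col5a3 differ by less than the SD of Col27a1, so their order is not settled. Col1a1 and Col3a1, the usual markers of fibrosis, were low in WT liver at 0.805 ± 0.164 and 2.44 ± 0.517 TPM. In WT cortex Timp2 led with 160.5 ± 9.94 TPM (n = 5), ahead of Timp3 at 31.5 ± 1.69, Col6a1 at 28.7 ± 3.39 and Col19a1 at 24.5 ± 2.67 TPM. Timp3 and Col6a1, and Col6a1 and Col19a1, are neighbours in that order whose means differ by less than the sum of their SDs. Exons of Timp3 share 21.3% of their length with the opposite-strand gene Syn3, so its level may hold reads of Syn3. Timp1 was low in both tissues, at 0.274 ± 0.0508 TPM in liver and 0.552 ± 0.297 TPM in cortex.

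The mean WT level was higher in liver than in cortex for 8 of the 48 members, a statement on levels set across 2 tables that carries no test. Col10a1, Col11a1, Col19a1, Col26a1 and Col9a1 had 0 counts in every WT liver. Timp4, an inhibitor known from brain and heart, had at most 4 counts in any liver and 8.61 ± 0.782 TPM in WT cortex. A filter on low counts left 36 of the 48 members for testing in liver. In cortex it left 47, all but Col10a1.

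**Figure D1:**
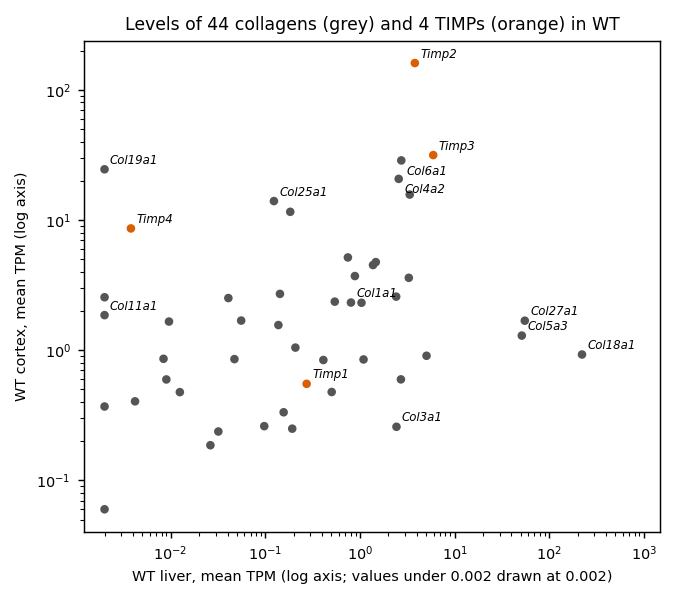
Mean TPM of each member in WT liver (x axis, n = 4) against WT cortex (y axis, n = 5), both on log axes, with 1 point per gene. Col18a1, Col27a1 and Col5a3 stand at the right with 222.6, 55.3 and 51.4 TPM in liver, and Timp2 at the top with 160.5 TPM in cortex.

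The chains of types I, III and V collagen had their highest mean level in liver in the combined genotype. Among the other tested fibrillar chains, mean Col27a1 and Col11a2 were lower there (115.9 and 2.28 CPM) than in WT (353.7 and 4.79 CPM), and Col24a1 was highest in TDP-43Q331K. Each tissue was fitted in edgeR with all 4 genotypes, and a gene was called at an adjusted p under 0.05 over all genes tested. Log2 fold changes are given ± SE. Against WT, 8 of 36 tested members (22.2%) were called in the combined liver, all of them higher, while 7.04% of all genes were called. The median log2 fold change was 0.33 over the 36 members, of which 21 lay above 0, and -0.03 over all genes. Of the 9 tested fibrillar chains 5 rose, which were Col1a1, Col1a2, Col3a1, Col5a1 and Col5a2. The other 3 were Col4a2, Col6a1 and Col16a1. With other tools the directions were mixed: DESeq2 called 10 members higher and 4 lower (Col9a3, Col11a2, Col13a1 and Col27a1) beside 11.1% of all genes, and limma-voom 9 higher and 5 lower (Col4a3, Col7a1, Col9a3, Col13a1 and Col27a1) beside 11.6%. In bulk tissue, fewer cells of a type and less RNA per cell cannot be told apart.

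Col1a1 encodes the alpha-1 chain of type I collagen, the main collagen of scar. The gene lies at chr11:94936224-94953042 (plus strand, GRCm38). It read 2.30, 3.33, 2.84 and 2.02 CPM in the 4 WT livers. In the combined livers it read 4.14, 8.92, 12.9 and 5.75 CPM. The groups did not overlap, and replicates 2 and 3 of the combined genotype stood highest. The change was 3.03-fold (log2 1.60 ± 0.30, edgeR adjusted p = 0.00405, higher than the WT mean in 4 of 4 libraries). TDP-43Q331K livers read 5.58, 4.58, 3.71 and 3.07 CPM and TMEM106B-/- livers 3.45, 4.34, 5.12 and 5.94 CPM. Both overlapped the combined livers, and neither was called against WT (log2 0.69 ± 0.30, adjusted p = 0.285, and 0.85 ± 0.30, adjusted p = 0.188).

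Col1a2, the partner chain of type I collagen, read 6.37, 7.38, 6.85 and 4.99 CPM in WT liver. It read 9.39, 13.6, 17.3 and 10.4 CPM in the combined genotype, every one above all WT livers. The change was 0.99 ± 0.19 on the log2 scale (adjusted p = 0.00439, 4 of 4 libraries). Col3a1, which mixes with type I in elastic tissues and early scar, read 13.8, 10.5, 13.1 and 9.69 CPM in WT and 20.04, 30.8, 39.4 and 19.4 CPM in the combined genotype. These groups were also apart, with replicates 2 and 3 again the highest (log2 1.22 ± 0.21, adjusted p = 0.00178, 4 of 4 libraries). Within a library the ratio of Col3a1 to Col1a1 had a median of 4.70 in WT and 3.42 in the combined livers.

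The type V chains, minor partners that nucleate type I fibrils, were measured as well. Col5a1 read 7.23, 5.68, 6.35 and 5.39 CPM in WT and 11.04, 10.4, 10.4 and 9.29 CPM in the combined livers. These 4 libraries lay close together and all above WT (log2 0.74 ± 0.13, adjusted p = 0.00299, 4 of 4). Col5a2 read 1.45, 2.04, 2.38 and 1.93 CPM in WT and 2.54, 3.12, 3.85 and 2.62 CPM in the combined genotype. Its groups were apart by a small gap (0.64 ± 0.18, adjusted p = 0.0459, 4 of 4). Col5a3, the third type V chain and a gene with far more liver RNA, was not called at 0.19 ± 0.31 (adjusted p = 0.785).

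Beyond the fibrillar chains, Col16a1, a collagen that decorates other fibrils, read 3.67, 2.72, 2.85 and 2.55 CPM in WT and 4.45, 5.02, 5.38 and 3.81 CPM in the combined livers. The lowest combined liver lay just above the highest WT liver (0.66 ± 0.15, adjusted p = 0.0157, 4 of 4). Col6a1, a chain of the beaded type VI filaments, read 6.66, 4.68, 7.48 and 4.71 CPM in WT and 7.74, 10.2, 11.7 and 7.41 CPM in the combined genotype. Here the groups overlapped, since 1 WT liver exceeded the lowest combined one (0.65 ± 0.18, adjusted p = 0.0389, 4 of 4 above the WT mean). Col4a2, a basement membrane chain, read 11.1, 8.01, 7.33 and 7.14 CPM in WT and 13.4, 13.0, 17.7 and 11.7 CPM in the combined livers (0.73 ± 0.22, adjusted p = 0.049, 4 of 4). Its groups were apart. Its partner Col4a1 was not called by edgeR, at 0.67 ± 0.24 (adjusted p = 0.11). It was called by limma-voom (0.92, adjusted p = 0.00812) and without the 3 livers with high acute phase transcripts (0.85, adjusted p = 0.0342).

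The calls of Col1a1, Col1a2, Col3a1 and Col5a1 held in all 17 alternative fits, libraries left out in turn included. The calls of Col6a1, Col5a2 and Col4a2 were lost in 8, 11 and 12 of the 17, all 3 with a smooth muscle covariate, and that of Col16a1 in 3 of the 17 (only the compared genotypes, without the 3 livers with high acute phase transcripts, and without replicate 3 of the combined genotype). Without replicate 3 of the combined genotype 4 of the 8 calls remained.

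**Figure D2:**
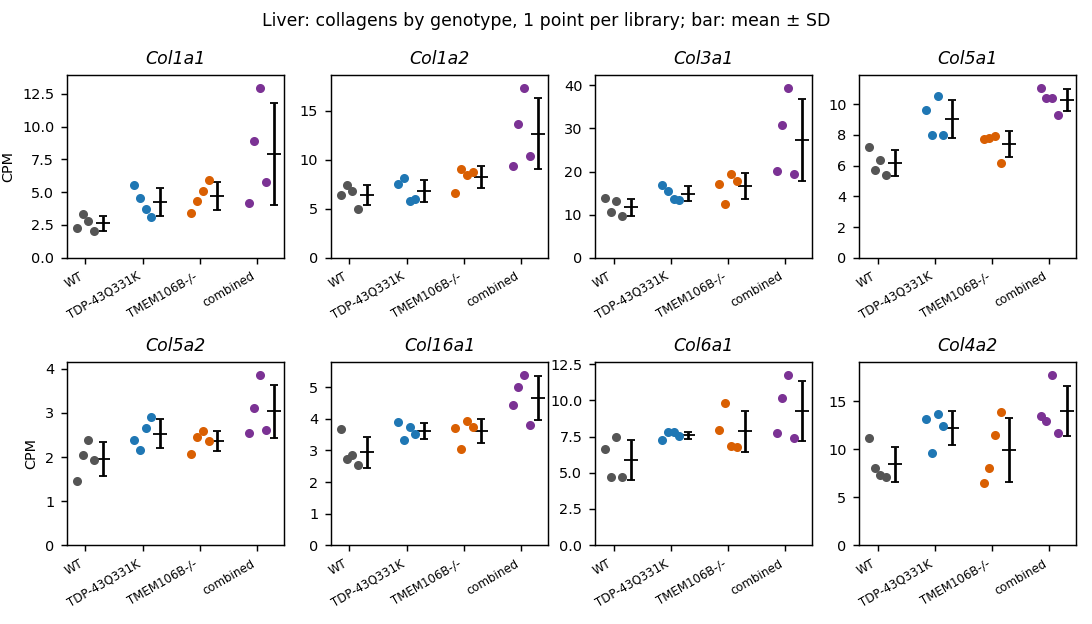
CPM (y axis, from 0) of the 8 collagens called in the combined genotype against WT in liver, by genotype (x axis), with 1 point per library and the mean ± SD as a bar (n = 4). For Col1a1, the combined livers reach 12.9 CPM and the WT livers at most 3.33 CPM.

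The promoters of 3 members are printed, the fibrillar pair Col1a2 and Col3a1, called in the same liver comparisons, and the inhibitor Timp1. They are the 250 bases before the transcription start in the RefSeq promoter table (build GRCm38.p6), which held 39 of the 48 members. Capitals mark matches to the CCAAT box, the GC box (letters GGGCGG) and the TATA box (letters TATAAA), searched on both strands. Col1a2 lies at chr6:4505368-4505617 (plus strand), Col3a1 at chr1:45311288-45311537 (plus strand) and Timp1 at chrX:20869916-20870165 (plus strand). The Col1a2 window lies inside the GENCODE gene, which starts upstream at 4504814.
Col1a2: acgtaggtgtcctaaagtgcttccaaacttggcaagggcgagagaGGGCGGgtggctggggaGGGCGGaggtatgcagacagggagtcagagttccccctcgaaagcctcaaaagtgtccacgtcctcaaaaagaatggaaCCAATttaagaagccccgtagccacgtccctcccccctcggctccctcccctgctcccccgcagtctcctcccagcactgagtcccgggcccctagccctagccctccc
Col3a1: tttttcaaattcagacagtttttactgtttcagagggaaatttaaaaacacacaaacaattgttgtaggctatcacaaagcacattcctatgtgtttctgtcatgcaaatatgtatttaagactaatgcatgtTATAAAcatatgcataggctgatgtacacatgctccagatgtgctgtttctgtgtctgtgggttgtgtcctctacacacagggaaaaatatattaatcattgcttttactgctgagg
Timp1: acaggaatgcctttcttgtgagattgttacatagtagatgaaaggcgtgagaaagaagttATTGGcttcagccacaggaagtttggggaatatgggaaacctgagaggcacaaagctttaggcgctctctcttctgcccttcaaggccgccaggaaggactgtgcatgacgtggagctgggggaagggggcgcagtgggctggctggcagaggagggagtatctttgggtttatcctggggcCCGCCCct

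The Col1a2 and Timp1 windows held a CCAAT box and a GC box, and the Col3a1 window held a TATA box alone. Of the 32851 promoter windows of this length in the table, 33.9% held the CCAAT box, 32.7% the GC box and 12.4% the TATA box. Among the 42 windows of members, 15 held the CCAAT box, 25 the GC box and 5 the TATA box. A match is a run of letters and not a site of binding.

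Against TDP-43Q331K, 4 of 36 tested members (11.1%) were called in the combined liver, 3 higher and 1 lower, beside 3.94% of all genes. Col1a2 read 7.49, 8.10, 5.79 and 5.97 CPM in TDP-43Q331K livers, all below the combined livers (0.89 ± 0.19, adjusted p = 0.0138). Col3a1 read 17.0, 15.5, 13.7 and 13.4 CPM there, again below every combined liver (0.88 ± 0.20, adjusted p = 0.022). Col1a1 was not called by edgeR, at 0.91 ± 0.30 (adjusted p = 0.0932). It was called by DESeq2 (adjusted p = 0.0348) and without the 3 livers with high acute phase transcripts (1.12, adjusted p = 0.0261). The combined livers are shared with the comparison against WT, so the 2 comparisons are not independent. The calls of Col1a2 and Col3a1 against TDP-43Q331K were lost with a smooth muscle covariate (adjusted p = 0.0553 and 0.0745), and without replicate 2 or 3 of the combined genotype or replicate 4 of TDP-43Q331K only 1 of the 4 calls was left.

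Timp1 (chrX:20870166-20874735), the inducible inhibitor often used as a sign of fibrosis, was near the floor of detection in liver. It had 6 to 11 counts in the WT libraries, 2 to 5 in TDP-43Q331K and 8 to 23 in the combined genotype. Levels were 0.104, 0.111, 0.112 and 0.155 CPM in WT, 0.081, 0.0332, 0.091 and 0.0301 CPM in TDP-43Q331K, 0.126, 0.114, 0.125 and 0.317 CPM in TMEM106B-/- and 0.171, 0.346, 0.218 and 0.138 CPM in the combined genotype. The combined livers lay above every TDP-43Q331K liver and overlapped WT. Timp1 was called against TDP-43Q331K (1.88 ± 0.49, adjusted p = 0.0424, 4 of 4) and not against WT (0.85 ± 0.45, adjusted p = 0.28). The call held in 4 of 15 alternatives, and of the 8 TDP-43Q331K and combined livers left out in turn, each but replicate 4 of the combined genotype ended it.

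No other inhibitor was called in liver. Timp2, which also helps to activate a metalloproteinase, read 7.84, 6.44, 8.15 and 6.83 CPM in WT and 6.76, 9.43, 13.7 and 6.32 CPM in the combined genotype, where replicate 3 stood apart (0.31 ± 0.22, adjusted p = 0.446). Timp3, the inhibitor bound to the matrix, read 20.2, 24.1, 28.0 and 23.6 CPM in WT and 20.1, 18.6, 31.0 and 22.8 CPM in the combined livers. Its difference was -0.05 ± 0.17 (adjusted p = 0.898). Exons of Timp3 share 1733 bases, 21.3% of its exon length, with the opposite-strand gene Syn3, and without a known strand setting these reads cannot be told apart.

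Col25a1 (chr3:130131501-130599877), a transmembrane collagen made by neurons and found in amyloid plaques, was the member called lower. It read 0.450, 0.629, 1.19 and 0.874 CPM in WT liver and 1.59, 2.60, 7.30 and 2.02 CPM in TDP-43Q331K liver. The TMEM106B-/- livers read 2.38, 0.992, 1.06 and 0.886 CPM and the combined livers 0.760, 0.120, 0.296 and 0.397 CPM. Every TDP-43Q331K liver stood above every WT and every combined liver. Col25a1 was lower in the combined genotype than in TDP-43Q331K (log2 -3.10 ± 0.57, adjusted p = 0.00771, 4 of 4), a call that held in all 17 alternatives. Without TDP-43Q331K replicate 3, the library at 7.30 CPM, it was -2.39 (adjusted p = 0.0195). Against WT it was not called in TDP-43Q331K by edgeR (2.09 ± 0.54, adjusted p = 0.119) and was called by DESeq2 (adjusted p = 0.00472).

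Col25a1 was also the only member called for the interaction in liver, which asks whether the TMEM106B-/- effect differs with and without TDP-43Q331K. The interaction was -3.83 ± 0.78 (adjusted p = 0.0338), and 0.688% of all genes were called. That call was lost with no filter on low counts and when any of 9 of the 16 livers was left out, with edgeR adjusted p up to 0.0767 among those 9.

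The 3 abundant liver collagens Col18a1, Col27a1 and Col5a3 were not called by edgeR in any liver comparison. Col18a1 read 853, 751, 729 and 759 CPM in WT and between 750 and 1108.5 CPM in the other livers (0.19 ± 0.12 in the combined genotype against WT, adjusted p = 0.36). Col27a1 varied most within a genotype, at 158, 126, 487 and 643 CPM in WT, 158, 398, 285 and 552 CPM in TDP-43Q331K, 240, 93.0, 178 and 71.6 CPM in TMEM106B-/- and 65.6, 121, 140 and 136 CPM in the combined genotype. The combined livers overlapped WT, and the difference of -1.61 ± 0.56 was not called by edgeR (adjusted p = 0.102), while DESeq2 and limma-voom called it (adjusted p = 0.0326 and 0.0491). Col5a3 read 147, 171, 181 and 195 CPM in WT, 141, 140, 305 and 168 CPM in TDP-43Q331K, 158, 90.9, 180 and 59.3 CPM in TMEM106B-/- and 147, 257, 207 and 178 CPM in the combined livers. These ranges all overlapped.

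Neither single genotype gave a called member in liver. TMEM106B-/- against WT had 0 called members and 9 with an unadjusted p under 0.05 by edgeR, beside 1.05% of all genes called. DESeq2 called 2, Col7a1 and Col11a2, both lower, beside 3.69% of all genes. For limma-voom it was 1, Col7a1, also lower, beside 1.94%. TDP-43Q331K against WT had 0 called and 8 with an unadjusted p under 0.05, beside 0.263% of all genes. DESeq2 called 2, both higher (2.45% of all genes), and limma-voom 1, also higher (2.04%). The combined genotype against TMEM106B-/- had 0 called and 13 with an unadjusted p under 0.05, beside 1.04% of all genes. DESeq2 called 4 (3.18% of all genes), all higher but Col25a1, and limma-voom 1, Col12a1, also higher (2.25%). For Col3a1 that last difference was 0.71 ± 0.20 (adjusted p = 0.119), and DESeq2 called it (adjusted p = 0.0383).

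**Figure D3:**
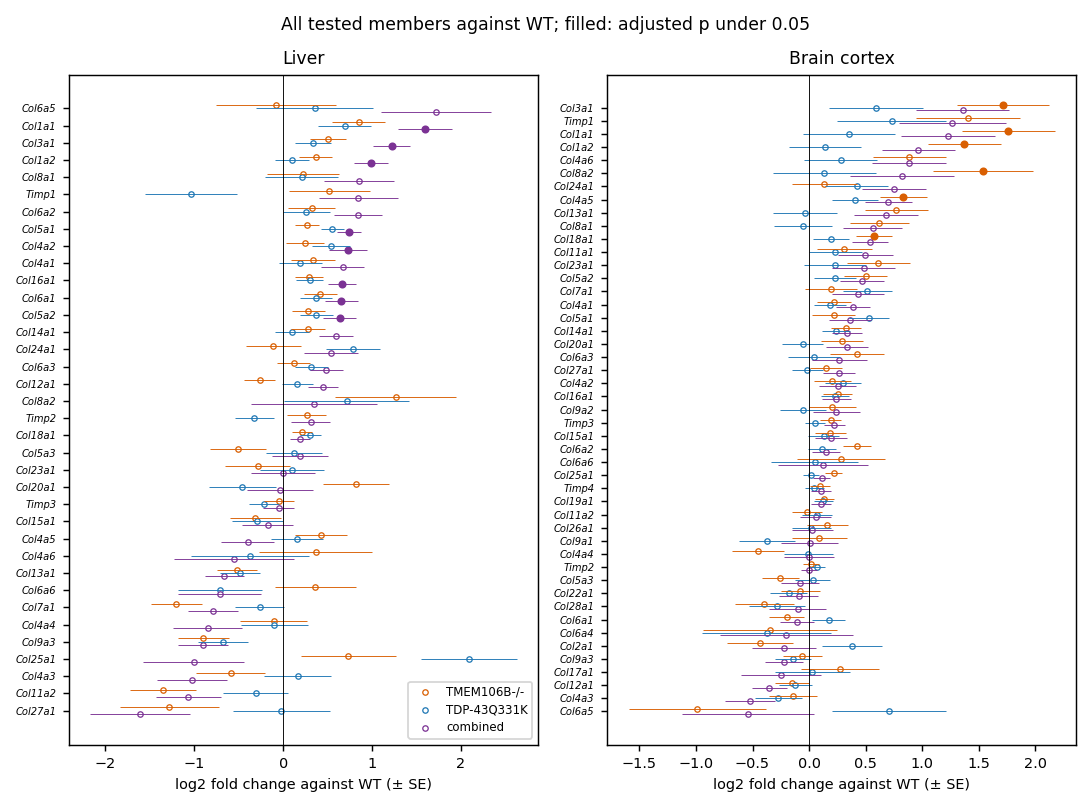
Log2 fold change against WT ± SE (x axis) of each tested member (y axis, 36 in liver and 47 in cortex), for the 3 other genotypes in colour, with filled points for an adjusted p under 0.05. In liver the 8 filled points are all of the combined genotype, and in cortex the 6 filled points are all of TMEM106B-/-.

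Genes that act on collagen were counted from fixed lists. Of 27 tested genes of collagen processing, 4 were higher in the combined genotype than in WT and none lower (median over the 27 genes 0.05). These were the crosslinking lysyl oxidases Loxl2 (1.41 ± 0.24, adjusted p = 0.00197) and Loxl4 (1.30 ± 0.28, adjusted p = 0.0114), the procollagen N-proteinase Adamts2 (0.79 ± 0.19, adjusted p = 0.0179) and the chaperone Fkbp10 (0.91 ± 0.27, adjusted p = 0.0483). Of 38 matrix glycoproteins, Tnc (1.36 ± 0.32, adjusted p = 0.0175) and Sparc (0.46 ± 0.13, adjusted p = 0.0386), 2 secreted matrix glycoproteins, were higher and the laminin chain Lama3 was lower (-1.44 ± 0.29, adjusted p = 0.00578). These 3 of 38 are a share near the 7.04% of all genes called. None of 21 tested matrix proteases and none of 9 collagen receptors was called by edgeR. Of 24 genes of TGF-beta and PDGF signalling only Skil, a repressor of that pathway, was called, and it was lower (-1.22 ± 0.30, adjusted p = 0.0224).

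Of 14 hepatic stellate cell markers, all detected in every liver, 0 were higher and 1, Hhip, was lower in the combined genotype than in WT (median 0.11). That is a share near the 7.04% of all genes called. The summed stellate level was 303.8 to 393.3 CPM in WT and 368.3 to 428.7 CPM in the combined livers. With the stellate score (the mean log2 CPM of the markers) as a covariate, Col1a1 stayed at 1.55 and Col3a1 at 1.17 on the log2 scale (adjusted p = 0.0088 and 0.00253). In that fit the calls of Col6a1 and Col4a2 against WT were lost. The calls of Col3a1 and Timp1 against TDP-43Q331K were lost there as well. Of 8 hepatocyte markers 2, Serpina1c (-0.83 ± 0.15) and Apoa1 (-0.39 ± 0.11), were lower, with sums of 112600 to 136780 CPM in WT and 102990 to 131610 CPM in the combined livers. Of 6 adipocyte markers 5 were at 0 in at least 1 liver, and of the 2 tested Retn was higher (4.43 ± 0.99), with all 6 summing to 0.378 to 2.75 CPM in WT and 3.13 to 6.04 CPM in the combined livers. Smooth muscle markers were spread widely: the 6 markers summed to 7.18 to 26.2 CPM in WT, 10.7 to 18.7 CPM in TDP-43Q331K, 13.3 to 43.1 CPM in TMEM106B-/- and 13.9 to 75.9 CPM in the combined genotype, none of them called. Replicate 3 of the combined genotype, which had the highest Col1a1, Col1a2 and Col3a1, also had the highest smooth muscle sum. The 9 portal fibroblast markers summed to 8.80 to 12.4 CPM in WT and 11.2 to 40.3 CPM in the combined livers. With the smooth muscle score as a covariate, chosen after seeing the data, Col1a1 was 1.39 (adjusted p = 0.0313) and Col3a1 1.14 (adjusted p = 0.0145). Portal fibroblast and adipocyte scores were not used as covariates.

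After the genotype means were removed, 144 pairs of a member and a score were correlated over 16 livers (two-sided permutation tests, adjusted over the 144). By r, 7 of 36 members passed with the endothelial score, 6 with the portal fibroblast, 5 with the smooth muscle and 1 with the stellate score, all positive. Without the 2 libraries farthest from the median score, only the stellate relation passed among these. Col14a1, a collagen of the fibril surface, followed the stellate score with r = 0.83 and rho = 0.84 (permutation adjusted p = 0.00288 and 0.00504), and r = 0.82 without the 2 libraries farthest from the median score (adjusted p = 0.0461). Col4a6 followed the smooth muscle score with r = 0.87 and rho = 0.88 (permutation adjusted p = 0.00288 and 0.00432). Without the 2 farthest r was 0.77 (permutation adjusted p = 0.0824), so its call was lost. Whether those libraries or the smaller number of libraries ended it was not tested. Col4a6 had only 3 to 12 counts in WT liver. Col1a1 gave r = 0.18 with the stellate score (permutation adjusted p = 0.694) and r = 0.68 with the endothelial score (adjusted p = 0.0417, rho = 0.51, adjusted p = 0.248). The latter was 0.34 without replicates 2 and 3 of the combined genotype (permutation adjusted p = 0.631).

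In cortex Col1a1, Col1a2 and Col3a1 had their highest mean level in TMEM106B-/-. Of the 11 fibrillar chains 7 peaked in another genotype, such as Col5a1 in TDP-43Q331K (16.3 CPM, with 13.1 CPM in TMEM106B-/-) and Col24a1 in the combined genotype (5.63 and 3.60 CPM), and the class median against WT was 0.22 in TMEM106B-/- and 0.47 in the combined genotype. Against WT, 6 of 47 tested members (12.8%) were called, all higher, beside 5.16% of all genes. The median log2 fold change was 0.21 over the 47 members, 35 of them above 0, and 0.01 over all genes. Of the 11 fibrillar chains 3 rose, Col1a1, Col1a2 and Col3a1. The other 3 were the basement membrane chain Col4a5, the endostatin collagen Col18a1 and the network collagen Col8a2, which is known from vessel walls and the eye.

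Col1a1 read 2.88, 4.16, 5.46, 4.46 and 4.38 CPM in the 5 WT cortices and 23.2, 10.3, 6.02, 13.6 and 18.8 CPM in TMEM106B-/-. All TMEM106B-/- libraries lay above all WT libraries, with replicate 3 the closest to WT. The change was 3.39-fold (log2 1.76 ± 0.41, edgeR adjusted p = 0.0175, 5 of 5 libraries). TDP-43Q331K cortices had a lowest value of 2.80, a median of 3.70 and a highest of 10.4 CPM, and the combined cortices read 8.16, 10.7, 9.56, 16.5 and 5.27 CPM. The combined genotype lay between WT and TMEM106B-/- and was not called against WT (1.23 ± 0.42, adjusted p = 0.0945) or TMEM106B-/- (-0.53 ± 0.39, adjusted p = 0.978).

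Col1a2 read 4.11, 9.45, 7.36, 8.59 and 10.7 CPM in WT and 27.3, 18.0, 8.33, 18.6 and 31.0 CPM in TMEM106B-/-. The groups overlapped through TMEM106B-/- replicate 3 (1.37 ± 0.32, adjusted p = 0.0181, 5 of 5 above the WT mean). TDP-43Q331K libraries ran from 5.65 over a median of 7.60 to 14.2 CPM, and the combined cortices read 12.8, 20.6, 16.3, 16.6 and 12.3 CPM, each above every WT cortex (0.97 ± 0.32, adjusted p = 0.0925). Col3a1 was much lower, at 0.431, 0.667, 0.455, 0.422 and 1.58 CPM in WT and 2.69, 2.23, 1.05, 1.86 and 3.53 CPM in TMEM106B-/-. WT replicate 5 exceeded the lowest TMEM106B-/- cortex (1.71 ± 0.41, adjusted p = 0.0165, 5 of 5). It ran from 0.577 over a median of 0.879 to 1.97 CPM in TDP-43Q331K and read 1.56, 3.06, 1.70, 1.40 and 1.28 CPM in the combined genotype (1.36 ± 0.41 against WT, adjusted p = 0.0624). The median ratio of Col3a1 to Col1a1 was 0.15 in WT cortex and 4.70 in WT liver.

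Col8a2 read 0.604, 1.39, 1.12, 1.09 and 1.16 CPM in WT and 3.19, 2.81, 1.02, 1.92 and 6.40 CPM in TMEM106B-/-, where replicate 5 was highest and replicate 3 lay within WT (1.54 ± 0.44, adjusted p = 0.0491, 4 of 5). Its TDP-43Q331K values ran from 0.643 over a median of 0.997 to 2.22 CPM, and the combined cortices read 0.723, 2.34, 2.66, 2.60 and 1.20 CPM. Col4a5, a chain of the basement membrane of smooth muscle and kidney, read 1.35, 1.92, 1.90, 2.35 and 2.32 CPM in WT and 3.83, 3.39, 1.89, 3.96 and 4.28 CPM in TMEM106B-/-. Again 4 of 5 TMEM106B-/- libraries exceeded every WT library and replicate 3 did not (0.83 ± 0.21, adjusted p = 0.0193). It ran from 2.14 over a median of 2.30 to 3.95 CPM in TDP-43Q331K and read 2.81, 4.35, 2.60, 2.82 and 3.39 CPM in the combined genotype (0.70 ± 0.21 against WT, adjusted p = 0.0536).

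Col18a1 in cortex read 1.41, 1.87, 2.41, 1.66 and 1.77 CPM in WT and 2.86, 2.69, 2.31, 2.56 and 3.12 CPM in TMEM106B-/-. The groups overlapped through WT replicate 3 (0.57 ± 0.16, adjusted p = 0.0378, 5 of 5 above the WT mean). TDP-43Q331K libraries ran from 1.73 over a median of 1.98 to 2.87 CPM, and the combined cortices read 2.29, 3.51, 2.60, 2.08 and 2.79 CPM (0.54 ± 0.16 against WT, adjusted p = 0.0543). Of 19 alternative fits, Col1a1 lost its call in 4, Col1a2, Col3a1 and Col4a5 in 6 each, Col18a1 in 11 and Col8a2 in 15. The Col8a2 call was lost with limma-voom, no filter, only the compared genotypes, a replicate block and each WT library left out.

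**Figure D4:**
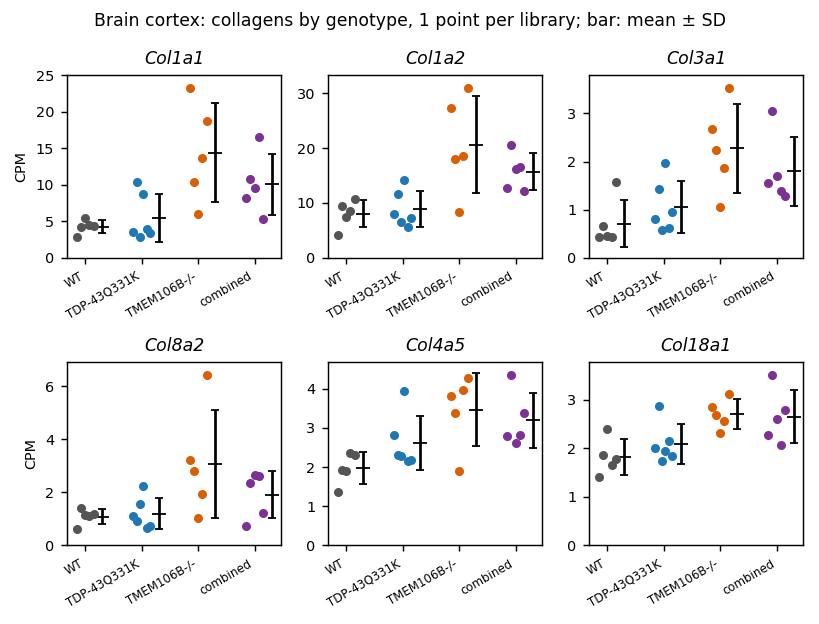
CPM (y axis, from 0) of the 6 collagens called in TMEM106B-/- against WT in cortex, by genotype (x axis), with 1 point per library and the mean ± SD as a bar (n = 5, or 6 in TDP-43Q331K). For Col1a1, the TMEM106B-/- cortices run from 6.02 to 23.2 CPM and the WT cortices reach 5.46 CPM.

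No other cortex comparison called a member by edgeR. The combined genotype against WT had 0 called and 16 with an unadjusted p under 0.05, beside 4.89% of all genes. DESeq2 called 5, all higher (Col1a1, Col1a2, Col3a1, Col4a5 and Col18a1), beside 7.53% of all genes. For limma-voom it was 1, Col3a1, beside 8.56%. The edgeR median over the 47 members was 0.24, beside 0.01 over all genes. Against TDP-43Q331K the combined genotype had 0 called and 9 with an unadjusted p under 0.05, beside 1.4% of all genes. No member was called there by DESeq2 (3.9% of all genes) or limma-voom (3.68%). TDP-43Q331K against WT, the combined genotype against TMEM106B-/- and the interaction had 0 called by edgeR, DESeq2 and limma-voom, with 2, 2 and 1 members at an unadjusted p under 0.05. In these 3 comparisons edgeR called 0% of all genes, and for TDP-43Q331K against WT DESeq2 called 9 genes and limma-voom 11. Both comparisons of a TMEM106B-/- label with WT share the WT cortices.

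Meningeal fibroblast markers were higher in the same cortices. Of 16 markers, with no member among them, 11 were higher in TMEM106B-/- than in WT cortex (median 1.38) and 3 in the combined genotype (median 1.26). Of all genes, 5.16% and 4.89% were called in these comparisons. Among the 11 were the transporter Slc6a13 (1.37 ± 0.34, adjusted p = 0.0253) and the retinoid binder Crabp2 (1.72 ± 0.37, adjusted p = 0.00881). The 16 markers summed to 32.1 to 87.1 CPM in WT, 51.4 to 115.3 CPM in TDP-43Q331K, 65.6 to 233.3 CPM in TMEM106B-/- and 95.6 to 193.3 CPM in the combined genotype, and only Slc22a2 was at 0 in any library. TMEM106B-/- replicate 3, the library nearest to WT for Col1a1, Col1a2, Col4a5 and Col8a2, had the lowest sum of its group, 65.6 CPM. WT replicate 1, lowest of all for Col1a2 and Col4a5, had the lowest sum of all, 32.1 CPM.

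With the meningeal score as a covariate, calls over all genes went from 1097 (5.16%) to 95 (0.447%), and none of the 6 collagen calls remained. Col1a1 was 0.55 (adjusted p = 0.592), Col1a2 0.19 (0.584), Col3a1 0.37 (0.647), Col4a5 0.22 (0.706), Col8a2 0.16 (0.914) and Col18a1 0.29 (0.568) on the log2 scale. The share of meninges in a dissected cortex and the RNA of these genes per meningeal cell cannot be told apart. Oligodendrocyte markers also differed between the groups: all 6 were lower in TMEM106B-/- than in WT (median -1.26), with sums of 2800 to 3181 CPM in WT and 993.7 to 1430 CPM in TMEM106B-/-. With their score as a covariate none of the 6 collagen calls remained (Col1a1 0.07, adjusted p = 0.987), and over all genes 1 call (0.00471%) was left. That covariate separated the 2 genotypes without overlap. Layer markers differed as well: 4 of 6 upper layer markers were higher (median 0.38, sums of 652.7 to 740.2 CPM in WT and 779.4 to 1093.5 CPM in TMEM106B-/-) and 2 of 8 deep layer markers lower (median -0.60, sums of 259.9 to 303.4 and 106.7 to 273.3 CPM). None of 6 striatal markers was called by edgeR (median -0.75), and of 4 tested choroid plexus markers Kcnj13 was higher (median -0.33). The part of layer, striatal and choroid plexus tissue in the collagen result was not tested. A further fit, chosen after seeing the data, left out 4 libraries with marker levels at an end of their group. The first WT replicate and TDP-43Q331K replicate 3 were the lowest of their groups on the meningeal score. TMEM106B-/- replicate 5 and combined replicate 2 were the highest of theirs. In that fit Col1a1 was 1.53 (adjusted p = 0.102) and Col3a1 1.37 (adjusted p = 0.0659), and none of the 6 was called. Leaving out these ends narrows the group difference in members that follow the score, so no conclusion is drawn from the lost calls. Leaving out single libraries gave 1 call (without TMEM106B-/- replicate 1 or 5), 3 calls (without WT replicate 1 or 4) or up to 12 (without TMEM106B-/- replicate 3).

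Vessel markers were counted next, beside 5.16% of all genes called in TMEM106B-/- against WT. Of 10 mural markers 3 were higher in TMEM106B-/- than in WT, Vtn, Atp13a5 and Pdgfrb (median of the 10, 0.08), with sums of 205.0 to 221.9 CPM in WT and 223.2 to 259.1 CPM in TMEM106B-/-. None of the 4 tested smooth muscle markers was called by edgeR (Cnn1 was at 0 in at least 1 library and not tested), and the 5 markers of the list summed to 10.3 to 14.6 CPM in WT and 11.8 to 23.9 CPM in TMEM106B-/-. Of 10 endothelial markers 1 was higher, the junction protein Cdh5 (0.53 ± 0.11, adjusted p = 0.00632, median of the 10, 0.17). The main vessel basement membrane chains Col4a1 and Col4a2 were not called, at 0.22 ± 0.15 (adjusted p = 0.456) and 0.21 ± 0.17 (adjusted p = 0.552). WT cortices ran from 23.7 to 41.8 CPM for Col4a1 and TMEM106B-/- cortices from 30.8 to 51.2 CPM.

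Within genotypes, 16 of 47 members followed the meningeal score, all positively, among 188 pairs of a member and a score correlated over 21 cortices (two-sided permutation tests, adjusted over the 188). Values were again shuffled across all cortices, so these p-values are somewhat too small as well. Col1a2 gave r = 0.95 and rho = 0.95 (permutation adjusted p = 0.000627 and 0.00094), and r = 0.92 without WT replicate 1 and TMEM106B-/- replicate 5, the 2 farthest from the median score (adjusted p = 0.00125). Col3a1 gave r = 0.81 and rho = 0.88 (permutation adjusted p = 0.000627 and 0.00094; r = 0.84 without those 2) and Col1a1 r = 0.74 and rho = 0.75 (permutation adjusted p = 0.00167 and 0.00349; r = 0.75 without them). Col4a5 gave r = 0.76 (permutation adjusted p = 0.00169, rho = 0.68, adjusted p = 0.00872) and Col8a2 r = 0.71 (adjusted p = 0.00358, rho = 0.67, adjusted p = 0.00872), with r = 0.68 and 0.62 without those 2 libraries. Of the 16, 12 also passed without them. As many members, 16, passed with the endothelial score (all positive) and 16 with the smooth muscle score (15 positive), and 11 with the mural score. By both r and rho the counts were 12 for the meningeal, 13 for the endothelial, 10 for the smooth muscle and 6 for the mural score. For example, Col1a2 gave r = 0.85 with the smooth muscle score (permutation adjusted p = 0.000627, rho = 0.77, adjusted p = 0.00263, r = 0.79 without the 2 farthest) and r = 0.73 with the endothelial score (permutation adjusted p = 0.00171, rho = 0.74, adjusted p = 0.00357, r = 0.78 without the 2 farthest). The scores are read from the same libraries as the members. The smallest raw p that 100000 permutations can give is 1e-05.

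Col4a1 and Col4a2 were not called with the meningeal score, where they gave r = 0.06 and 0.04 (permutation adjusted p = 0.887 and 0.937), and with the mural score r = 0.63 and 0.61 (permutation adjusted p = 0.0122 and 0.017; rho = 0.60 and 0.53, adjusted p = 0.0237 and 0.0604). Without WT replicate 5 and TMEM106B-/- replicate 5 the mural r was 0.49 and 0.50 (permutation adjusted p = 0.111 and 0.116), so those calls were lost. Whether these libraries or the smaller number of libraries ended them was not tested. Col1a2 gave r = 0.38 with the mural score (permutation adjusted p = 0.168). Differences between these correlations were not tested. The 2 genes sit head to head on chromosome 8 of GRCm38, Col4a1 on the minus strand at 11198423 to 11312826 and Col4a2 on the plus strand at 11312805 to 11449287, with 22 shared exon bases.

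**Figure D5:**
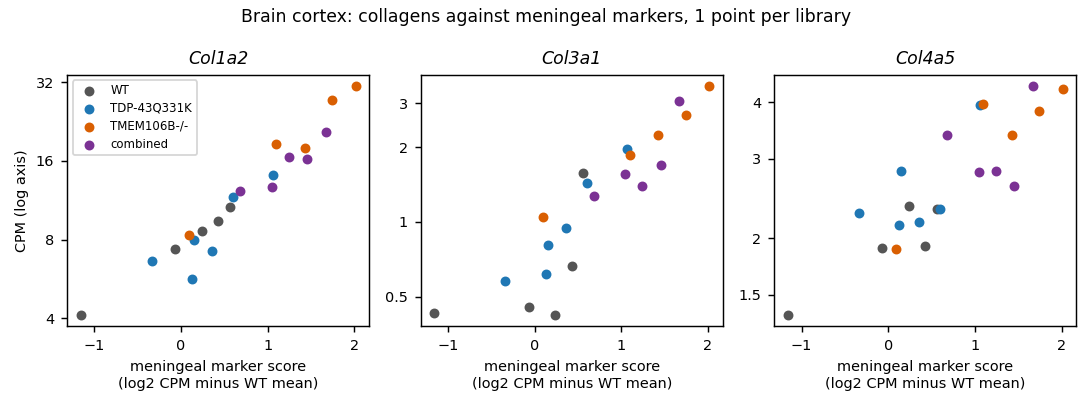
CPM on a log axis (y) of Col1a2, Col3a1 and Col4a5 in each cortex library against its meningeal marker score (x, mean log2 CPM of 16 markers minus the WT mean), coloured by genotype. TMEM106B-/- replicate 3, at a score of 0.09, lies among the WT libraries, and WT replicate 1, at -1.16, is the lowest on the score.

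The TIMPs of cortex were not called in any comparison. Timp1 read 0.115, 0.0534, 0.241, 0.181 and 0.0966 CPM in WT (2 to 9 counts) and 0.355, 0.336, 0.175, 0.233 and 0.692 CPM in TMEM106B-/- (1.40 ± 0.46, adjusted p = 0.0812). It ran from 0.0866 over a median of 0.267 to 0.306 CPM in TDP-43Q331K and read 0.145, 0.660, 0.356, 0.324 and 0.209 CPM in the combined genotype. All ranges overlapped. Timp2, the most abundant member of cortex, read 168, 164, 192, 175 and 177 CPM in WT, 189, 183, 188, 179 and 149 CPM in TMEM106B-/- and 167, 144, 190, 189 and 185 CPM in the combined genotype, and ran from 169 over a median of 187 to 196 CPM in TDP-43Q331K. Its difference in TMEM106B-/- was 0.02 ± 0.07 (adjusted p = 0.919), the most tightly measured of the 47 members.

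Timp3 read 68.0, 75.2, 73.4, 73.2 and 69.6 CPM in WT and 89.5, 81.6, 59.6, 78.9 and 99.6 CPM in TMEM106B-/-, where replicate 3 was the lowest of all (0.19 ± 0.09, adjusted p = 0.281). The combined cortices read 70.4, 92.2, 88.7, 82.4 and 85.6 CPM, and TDP-43Q331K ran from 68.3 over a median of 76.5 to 78.7 CPM. Timp3 followed the meningeal score within genotypes (r = 0.73, permutation adjusted p = 0.00276, rho = 0.71, adjusted p = 0.00521, r = 0.74 without the 2 farthest libraries). In cortex too, reads of the exons that Timp3 shares with Syn3 cannot be told apart. Timp4, made by astrocytes in brain, read 13.5, 13.99, 13.5, 13.6 and 16.5 CPM in WT, 13.2, 16.8, 13.3, 15.5 and 17.2 CPM in TMEM106B-/- and 16.2, 15.9, 16.6, 13.1 and 14.7 CPM in the combined genotype, and ran from 12.5 over a median of 14.8 to 16.6 CPM in TDP-43Q331K (0.10 ± 0.09 in TMEM106B-/-, adjusted p = 0.609).

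No neuronal collagen was called in cortex. Col25a1 read 45.7, 49.7, 57.7, 54.2 and 46.2 CPM in WT, 60.7, 56.3, 57.1, 56.5 and 63.8 CPM in TMEM106B-/- and 56.5, 53.2, 64.3, 56.0 and 43.9 CPM in the combined genotype, and ran from 48.1 over a median of 51.1 to 54.4 CPM in TDP-43Q331K. The difference in TMEM106B-/- was 0.22 ± 0.08 (adjusted p = 0.105), and its interaction was -0.12 ± 0.10 (adjusted p = 0.999), and its difference from the liver interaction was not tested. Col19a1, made by interneurons, read 46.3, 52.2, 45.1, 51.6 and 41.2 CPM in WT, 49.2, 51.4, 45.0, 51.1 and 62.3 CPM in TMEM106B-/- and 50.04, 52.8, 54.9, 48.3 and 48.0 CPM in the combined genotype, and ran from 45.9 over a median of 50.7 to 61.4 CPM in TDP-43Q331K (0.13 ± 0.09 in TMEM106B-/-, adjusted p = 0.431). Of type VI, edgeR gave Col6a1 -0.20 ± 0.15 (adjusted p = 0.519) and Col6a2 0.43 ± 0.13 (adjusted p = 0.0511) in TMEM106B-/-. Col6a2 was called there by DESeq2 (adjusted p = 0.0196), limma-voom (0.0412), the fit of the compared genotypes only (0.0316) and the fit with a replicate block (0.0339).

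Other matrix genes were counted from fixed lists. Of all genes, 5.16% were called in TMEM106B-/- and 4.89% in the combined genotype against WT. Of 39 tested matrix glycoproteins 17 were higher in TMEM106B-/- than in WT and none lower (median over the 39, 0.53), and 4 in the combined genotype (median 0.41). The 6 with the smallest p included the basement membrane genes Hspg2 (0.57 ± 0.13, adjusted p = 0.0103), Nid1 (0.91 ± 0.21, adjusted p = 0.0145) and Lamb2 (0.54 ± 0.14, adjusted p = 0.0233), together with Tnc (1.04 ± 0.20, adjusted p = 0.00391). Ogn, Bgn and Fmod, also among the 17, belong to the meningeal marker list as well, and Vtn to the mural list. Of 31 collagen processing genes 5 were higher and 1 lower in TMEM106B-/-, with the prolyl hydroxylase P3h1 (0.38 ± 0.09, adjusted p = 0.0175) and the procollagen enhancer Pcolce (1.34 ± 0.34, adjusted p = 0.0253) among the 5. Of 22 proteases Mmp9 (0.89 ± 0.20, adjusted p = 0.0105) and Mmp14 (0.77 ± 0.17, adjusted p = 0.0117) were higher and Adamts4, an enzyme of oligodendrocytes in brain, was lower (-1.04 ± 0.20, adjusted p = 0.00567). Among 9 collagen receptors Mrc2 and Ddr2 were higher and Ddr1 lower.

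Among 24 genes of TGF-beta and PDGF signalling, 5 were higher in TMEM106B-/- cortex, which included Smad3 (0.48 ± 0.11, adjusted p = 0.0133) and Ltbp4 (0.37 ± 0.08, adjusted p = 0.00651). The matrix gene Ccn2 was lower (-1.04 ± 0.24, adjusted p = 0.0177). Over all genes 5.16% were called in this comparison.

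Between the tissues, Col1a1, Col1a2 and Col3a1 were called in both, 3 of the 8 members called in combined liver (37.5%) and 3 of the 6 called in TMEM106B-/- cortex (50%). The calls shared over all genes were not counted, so this overlap is not read as a trait of the members. The genotypes differed: in liver TMEM106B-/- alone gave Col1a1 0.85 ± 0.30, Col1a2 0.36 ± 0.19 and Col3a1 0.51 ± 0.20, none called (adjusted p = 0.188, 0.38 and 0.251). The difference between the tissues was not tested, since they are separate tables.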

How the data were processed

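RNA was sequenced from liver (16 libraries) and brain cortex (21 libraries). Total RNA went into strand-marking libraries, per the labels' protocols. The submitters' processing notes name Trim Galore, cutadapt and FastQC as tools and GRCm38 and mm10 as builds. The sources used here name no aligner, counter or strand setting. The authors deposited raw whole-number counts per gene, without normalization. All 55536 identifiers matched GENCODE M21. A single cortex column (1) matched no sample in the labels and was not used.

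Each tissue was fitted with its 4 genotypes in edgeR 4.0.16 (R 4.3.3). Genes were kept by filterByExpr (minimum count 10, total 15), keeping 16710 liver and 21248 cortex genes. TMM scaling and the robust quasi-likelihood test were used, with 12 and 17 residual degrees of freedom, two-sided, adjusted by Benjamini-Hochberg over all genes, called under 0.05. The fit was tested on simulated data. TPM used merged exon lengths. Correlations used log2(CPM + 0.1) with genotype means removed. Their permutations shuffled values across all libraries of a tissue and not within genotypes.

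Alternatives were DESeq2 1.42.0, limma-voom (limma 3.58.1), RLE factors, no filter, only the compared genotypes, a replicate block, marker score covariates and libraries left out. Members called in any comparison, Col1a1, Col3a1, Timp1 to Timp4 and the 4 members highest in mean CPM per tissue are given per library. From each gene list, called genes were named, at most 6 with the smallest p. The members and lists were chosen with earlier results of these data known. Between libraries, edgeR estimated a common coefficient of variation of 0.235 (liver) and 0.103 (cortex).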

Additional observations from a re-analysis of the deposited data

Results flagged for a closer look

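Of 108 groups of 4 to 6 libraries checked among the members given per library, 10 held a library far from the others, and chance alone flags about 1 group in 20. In liver, Col5a3 stood at 305.1 CPM in TDP-43Q331K replicate 3, with the others at 140.5 to 167.6 CPM. Col25a1 stood at 2.38 CPM in TMEM106B-/- replicate 1, with the others at 0.886 to 1.06 CPM. Col5a1 was low at 6.15 CPM in TMEM106B-/- replicate 4, below 7.76 CPM in the next library. Timp1 stood at 0.155 CPM in WT replicate 4 and at 0.317 CPM in TMEM106B-/- replicate 4, both from few counts. The latter is 1 of the 3 livers with high acute phase transcripts.

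In cortex, Col3a1 stood at 1.58 CPM in WT replicate 5 and at 3.06 CPM in combined replicate 2, above 0.667 and 1.70 CPM in the next libraries of their groups. Col18a1 stood at 2.87 CPM in TDP-43Q331K replicate 2. Timp4 stood at 16.5 CPM in WT replicate 5. Timp2 was low at 149.0 CPM in TMEM106B-/- replicate 5, the cortex with the highest meningeal score, below 179.5 CPM in the next library.

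The effect of the TMEM106B-/- label on liver Col25a1 differed with the TDP-43 genotype by the interaction term of edgeR, -3.83 on the log2 scale.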

How the results depend on the processing

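No call of a member reversed its direction in any alternative: of 340 refits of a called member, 227 kept the call and 113 lost it. In liver, the combined genotype against WT (8 members called) gave 14 with DESeq2 (10 higher, 4 lower) and 14 with limma-voom (9 higher, 5 lower), beside 11.1% and 11.6% of all genes where edgeR called 7.04%. It gave 5 when only the compared genotypes were fitted (5.71% of all genes), and 5 higher and 2 lower with the smooth muscle covariate (4.11%). Each library left out gave 4 to 10 (5 without WT replicate 2 or 4, 5 without combined replicate 2, 4 without combined replicate 3). Against TDP-43Q331K (4 called, 3.94% of all genes) limma-voom gave 8 (11.2%), the stellate covariate 2 (2.21%) and the smooth muscle covariate 1 (2.88%). Libraries left out gave 1 to 4 there (2 without TDP-43Q331K replicate 3). TMEM106B-/- against WT (0 called) gave 2 with DESeq2 (3.69% of all genes) and 1 with limma-voom (1.94%). It gave 1 without the filter (0.573%), 1 with the smooth muscle covariate (0.796%) and 0 to 1 with libraries left out (1 without WT replicate 1). TDP-43Q331K against WT (0) gave 2 with DESeq2 (2.45%) and 1 with limma-voom (2.04%). The combined genotype against TMEM106B-/- (0) gave 4 with DESeq2 (3.18%) and 1 with limma-voom (2.25%). The liver interaction (1) gave 0 without the filter and 0 to 1 with libraries left out.

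In cortex, TMEM106B-/- against WT (6 called) gave 0 with the meningeal covariate (0.447% of all genes) and 0 with the oligodendrocyte covariate (0.00471%). It gave 0 without the 4 cortices left out for their markers (3.63%) and 1 to 12 with single libraries left out. The combined genotype against WT (0) gave 5 with DESeq2 (7.53%), 1 with limma-voom (8.56%) and 2 when only the compared genotypes were fitted (3.62%). It gave 2 without the 4 cortices (Col4a1 and Col24a1, beside 5.15%) and 0 to 1 with libraries left out. Against TDP-43Q331K (0) libraries left out gave 0 to 1. The cause of these shifts was not tested. Without the 2 libraries farthest from the median score, 34 of 332 correlations passed, compared with 78 over all libraries.

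With the replicate number as a block, liver counts in the combined genotype were 7 against WT (5.86% of all genes) and 3 against TDP-43Q331K (3.42%). Cortex gave 6 in TMEM106B-/- against WT (3.99%). In that cortex fit Col8a2 lost its call and Col6a2 gained one. Deviations of same-numbered libraries from their genotype means correlated with r from -0.207 to 0.278 in liver and -0.196 to 0.158 in cortex. Differently numbered libraries of different genotypes gave -0.255 to 0.231 and -0.285 to 0.258. No shared deviation by number was seen, but such values cannot exclude a pairing. The smooth muscle and oligodendrocyte covariates, the fit without the 3 livers with high acute phase transcripts and the fit without 4 cortices were chosen after seeing the data.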
